A study of Mus musculus with 10 samples.

Results

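Genes of lymphocytes and of lymph node stroma were described gland by gland in lactating mouse mammary tissue. They were 34 listed genes whose Ensembl identifiers mapped to a named symbol of B cells (10 genes), T cells (14 genes), NK and other cytotoxic lymphocytes (5 genes) or lymph node stroma and lymphocyte homing (5 genes). Of these, 33 had values among the 35275 genes of the deposited table, 9 of them B cell genes. Ighd was not analysed here. None of the members stood in the authors' deposited table of 908 differing genes, so every value below comes from the table of all genes.

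RNA was sequenced from whole 4th mammary glands of BALB/c mice, an inbred strain, on lactation day 3. Through the teat opening, glands had received 50 µL of sterile phosphate-buffered saline (PBS, 5 glands) or 50 µL of lipopolysaccharide at 0.4 mg/mL (LPS, the endotoxin of Gram-negative bacteria, here from E. coli O55:B5, 5 glands), with the sides alternating between animals. Glands were taken 12 h later. The labels state n = 9 without tying the 10 libraries to animals, do not say whether glands of equal number shared a mouse, and name no gland without an injection. Because an injected saline gland had an LPS gland on the other side, both groups come from animals exposed to LPS. The p-values therefore measure the spread between these glands only.

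B cells recognise antigen through surface immunoglobulin coupled to the Cd79a and Cd79b signalling chains, and T cells through a receptor coupled to the CD3 chains. In lymph nodes, stromal cells release the chemokines Ccl21a and Ccl19, which draw Ccr7-bearing T cells and dendritic cells, and Cxcl13, which draws Cxcr5-bearing B cells into follicles. The fat pad of the mouse 4th mammary gland holds the inguinal lymph node. The labels do not state whether that node was part of the tissue taken, and whether node tissue contributed to any value below was not tested. In bulk RNA, fewer cells of a type and less RNA per cell cannot be told apart.

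Sequence before the start of transcription was available from RefSeq (GRCm38.p6, the mm10 assembly named by the submitters) for 21 members. The following 4 windows of 30 bases are shown because they hold the AGGAAGTG motif, a core of binding sites for ETS factors, which many lymphocyte genes carry. Each reads 5′ to 3′ on the gene's strand, with motif matches in capitals.
Cd79a: cacggctgaacAGGAAGTGaggcggagttt
Cd3d: aaattcccttaCACTTCCTAGAAttctgaa
Cd3e: agtcccctctaCACTTCCTgtgtggggttc
Lck: gctggggcggcAGGAAGTGggtaactagac
The Cd79a window lies at chr7:24897431-24897460 on the plus strand, with the match 55 bases before the start of transcription in RefSeq. The Ensembl gene begins further upstream, so by that annotation the window lies inside Cd79a. The Cd3d window lies at chr9:44981575-44981604 on the plus strand, with the match 200 bases before the start, written on the opposite strand as CACTTCCT. Its capitals run on because a TTCNNNGAA match, the pattern of STAT factor sites, overlaps it. The Cd3e window lies at chr9:45009612-45009641 on the minus strand with the match 19 bases before the RefSeq start, and the match spans the start of the Ensembl gene. The Lck window lies at chr4:129558468-129558497 on the minus strand, 114 bases before the downstream one of its 2 RefSeq starts, and is inside the Ensembl gene. AGGAAGTG, searched on both strands over 250 bases before the start, was in 4 of 21 members, at any of a member's RefSeq starts, and in 3.14% of 32851 promoters. TTCNNNGAA was in 4 of 21 members (Cd3d, Glycam1, Il7r and Nkg7) and in 7.02% of promoters. Both motifs were chosen after the sequences had been seen, and a match is a description, not a bound site.

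The stretches upstream of Ccl21a and Glycam1 are shown because, of all members, Ccl21a transcripts were the most and Glycam1 transcripts the least concentrated in the glands rich in Cd79a, as described below.
Ccl21a: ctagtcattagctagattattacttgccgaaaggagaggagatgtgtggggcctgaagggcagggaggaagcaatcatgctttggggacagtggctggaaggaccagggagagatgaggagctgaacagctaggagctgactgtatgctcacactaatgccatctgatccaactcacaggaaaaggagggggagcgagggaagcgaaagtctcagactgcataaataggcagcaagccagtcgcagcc
Glycam1: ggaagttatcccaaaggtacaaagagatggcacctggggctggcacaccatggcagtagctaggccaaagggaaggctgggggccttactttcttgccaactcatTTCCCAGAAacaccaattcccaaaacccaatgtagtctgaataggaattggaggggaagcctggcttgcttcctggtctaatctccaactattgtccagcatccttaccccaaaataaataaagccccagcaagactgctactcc
The Ccl21a stretch, at chr4:42773994-42774241 on the minus strand, held no match to either motif. The Glycam1 stretch, at chr15:103565082-103565331 on the minus strand, held 1 TTCNNNGAA match, in capitals, 145 bases before the start. Glycam1 encodes a mucin-like ligand of L-selectin in the high endothelium of lymph nodes, and is also a milk protein gene of the lactating epithelium.

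Values are FPKM, read counts normalised to gene length and to the read total of the library. Depth was 15734303 to 18869545 counted reads per library. Whole reads could be recovered from the FPKM, and 1 read in a gene of 1 kb was worth 0.053 to 0.0636 FPKM. Most members were therefore counted in few reads outside the glands that held them. A value of 0 allowed at most 3 reads, which for Cd79a was 0.109 to 0.131 FPKM. PCR copies could not be told from separate molecules, so such limits and the intervals below cover counting error only.

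A few libraries stood apart before groups were considered. PBS 2 held the highest value for 25 of the 33 members, against 24.8% of the 13111 genes with mean FPKM of at least 0.5. LPS 3 was highest for 5 (Cd22, Ccr7, Gzma, Gzmb and Prf1), PBS 4 for 2 (Ighm and Nkg7) and PBS 1 for Glycam1, while PBS 4 was the next highest for 17. The 4 glands of highest Cd79a, in order PBS 2, PBS 4, LPS 3 and LPS 2, came as 2 from each group. The same 4 glands stood above all other 6 for 23 of 33 members, including Cd79a, by which they were picked. The share over all genes is not given here, so this count is a description only. One of the 4 was highest for 32 of 33 members and for 14419 of 23059 genes above 0. Outside Glycam1 and Cxcl13, the members together had 7746 reads in PBS 2, 5193 in PBS 4, 3858 in LPS 3 and 1027 in LPS 2, and 319 to 904 reads in each of the other 6 glands. The comparison of the groups is given below with and without these libraries.

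**Figure D1:**
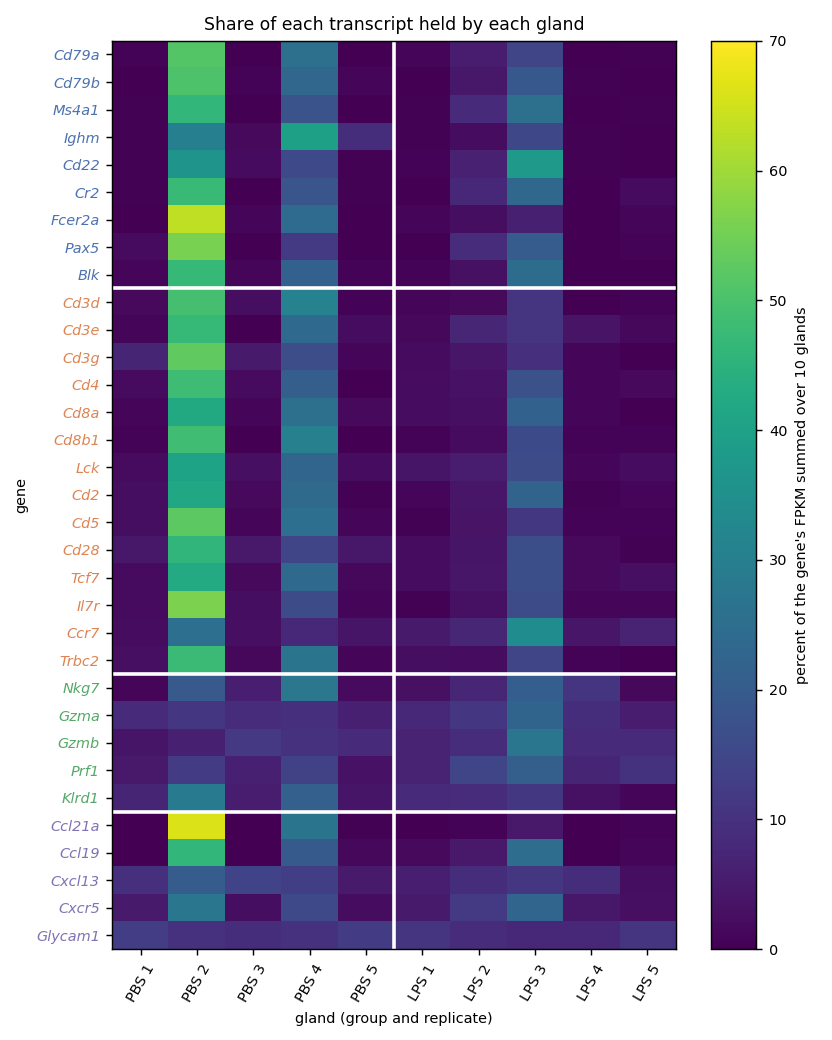
Percent of each gene's FPKM, summed over the 10 glands, that each gland held (colour), for 33 genes in rows grouped as B cell, T cell, NK and cytotoxic, and stroma and homing genes, and for PBS 1 to 5 and LPS 1 to 5 in columns. PBS 2 is the brightest column for 25 genes, and the row of Glycam1 is nearly even.

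Among B cell genes, the receptor signalling chain Cd79a (ENSMUSG00000003379, chromosome 7, 24897381 to 24902197, plus strand) had 12.7 FPKM in PBS 2 and 6.41 in PBS 4, against 0.19, 0 and 0.043 in PBS 1, 3 and 5. In LPS glands it had 3.65 FPKM in LPS 3 and 1.40 in LPS 2, against 0.255, 0.043 and 0.081 in LPS 1, 4 and 5. Each group thus had high and near-empty glands, and the ranges of the groups overlapped. In reads the contrast was 313, 147, 92 and 37 in the 4 high glands against 0 to 7 in the other 6.

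Cd79b, its partner chain, followed with 8.66 FPKM in PBS 2, 4.00 in PBS 4, 3.31 in LPS 3 and 0.771 in LPS 2, and at most 0.175 elsewhere. Ms4a1, the CD20 membrane protein, had 5.30, 2.05, 2.95 and 0.968 FPKM in the same glands and at most 0.0576 in the others. In both genes the 4 glands stood apart from the other 6 without overlap, and LPS 3 was above PBS 4 for Ms4a1 but not for Cd79b.

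Ighm, the constant region of the IgM heavy chain, was the most abundant B cell member and the one led by PBS 4. It had 123 FPKM in PBS 4, 93.8 in PBS 2, 47.5 in LPS 3, 28.4 in PBS 5, 7.63 in LPS 2 and 5.73 in PBS 3. The other 4 glands were between 0.497 and 1.67 FPKM. PBS 5, which had 1 read of Cd79a, thus had 647 reads of Ighm. Plasma cells also transcribe Ighm. Of 10 plasma cell genes none had at least 80% of its FPKM in the 4 glands (median 52.9%). One of the 4 was highest for 7 of the 10, near the share over all genes (14419 of 23059 above 0). Jchain, which joins IgA and IgM units, was highest in PBS 4 (35.4 FPKM), as was Xbp1, a transcription factor also active in secretory epithelium. Igha, the IgA heavy chain, was highest in LPS 1 (89.5 FPKM) and PBS 1 (69.6 FPKM), which were near-empty of Cd79a. In PBS 5, Jchain had 5.16 FPKM, its lowest PBS value. Igha had 9.79 FPKM there, with 8.83 to 69.6 over PBS glands, and Xbp1 had 467, with 385 to 555. Whether plasma cells contributed to Ighm in PBS 5 was not tested.

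The co-receptors differed among themselves. Cr2, the complement receptor CD21, had 2.52 FPKM in PBS 2, 0.983 in PBS 4, 1.26 in LPS 3 and 0.409 in LPS 2, and at most 0.105 elsewhere. Fcer2a, the low-affinity IgE receptor CD23 of mature follicular B cells, had 5.16 FPKM in PBS 2 and 1.99 in PBS 4 but 0.490 in LPS 3 and 0.221 in LPS 2. Cd22, an inhibitory sialic acid-binding receptor, had 4.90 FPKM in LPS 3, beside 4.68 in PBS 2, 2.0 in PBS 4 and 0.818 in LPS 2. LPS 3 was thus level with PBS 2 for Cd22, with 337 and 314 reads, and far below it for Fcer2a, with 19 and 195 reads. The B cell transcription factor Pax5 (0.443 to 2.75 FPKM in the 4 glands) and the Src-family kinase Blk (0.111 to 1.72 FPKM) were at most 0.103 and 0.0478 FPKM elsewhere. Cd22 and Pax5 overlap antisense genes, whose reads could not be told from theirs because the strand setting is not given in the sources used here.

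Among T cell genes, the CD3 chains Cd3d, Cd3e and Cd3g lie together on chromosome 9 between 44969572 and 45009627. Cd3e (ENSMUSG00000032093, minus strand) had 7.10 FPKM in PBS 2, 3.63 in PBS 4, 1.65 in LPS 3 and 1.15 in LPS 2. Its other values were 0.193, 0.0412 and 0.348 FPKM in PBS 1, 3 and 5 and 0.221, 0.567 and 0.246 in LPS 1, 4 and 5. As for Cd79a, each group held 2 high and 3 low glands and the groups overlapped, but no low gland was without a read. Cd3e shares 135 exon bases with the antisense gene Gm48719, so reads there could not be assigned to either gene, which also limits the ratios to Cd3e below.

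Cd3d had 3.36 FPKM in PBS 2, 2.11 in PBS 4 and 0.743 in LPS 3, and its value in LPS 2 (0.125 FPKM, 3 reads) lay within the range of the low glands (0 to 0.179 FPKM). Cd3g had 8.34 FPKM in PBS 2, 2.61 in PBS 4 and 1.53 in LPS 3, and 1.14 in PBS 1, above the 0.647 of LPS 2. Trbc2, a constant region of the T cell receptor beta chain, had 20.2 FPKM in PBS 2, 11.3 in PBS 4 and 6.21 in LPS 3, and 0 to 1.17 in the other 7 glands. LPS 2 thus stood above the low glands for Cd3e but not for these 3 receptor genes.

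The helper co-receptor Cd4 had 4.37 FPKM in PBS 2, 1.92 in PBS 4, 1.58 in LPS 3 and 0.302 in LPS 2, and the cytotoxic co-receptor Cd8a had 2.56, 1.56, 1.31 and 0.176 FPKM. Cd8b1, the partner of Cd8a and its neighbour on chromosome 6, had 2.63, 1.66, 0.856 and 0.117 FPKM. In the other 6 glands Cd4 reached at most 0.205 FPKM, Cd8a 0.135 and Cd8b1 0.0442. Helper and cytotoxic co-receptors thus had the same 4 glands on top. The ratio of Cd4 to Cd8a FPKM was 1.71 in PBS 2 (95% counting interval 1.38 to 2.13), 1.23 in PBS 4, 1.21 in LPS 3 (0.869 to 1.68) and 1.71 in LPS 2 (0.740 to 4.18).

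Of the receptor's kinase and the adhesion and costimulatory molecules, Lck had 2.72 to 6.75 FPKM in PBS 2, PBS 4 and LPS 3, 0.908 in LPS 2 and at most 0.655 elsewhere. Cd2 had 2.56 to 4.78 FPKM in those 3 glands, and Cd5, an inhibitory regulator of receptor signalling, had 0.559 to 2.58. Cd28, the costimulatory receptor, was the lowest T cell member, with 1.16 FPKM in PBS 2, 0.426 in LPS 3 and 0.366 in PBS 4, and LPS 2 (0.101 FPKM) was within the low range. Tcf7, a transcription factor of naive and memory T cells, had 7.89 FPKM in PBS 2, 4.40 in PBS 4, 3.09 in LPS 3 and 0.803 in LPS 2, and 0.278 to 0.549 elsewhere. Il7r, the receptor for the survival cytokine IL-7, had 5.03 FPKM in PBS 2, and 1.47 in PBS 4 was level with 1.46 in LPS 3.

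Ccr7, the receptor for Ccl21a and Ccl19, departed from the other T cell genes. It had 8.59 FPKM in LPS 3, 6.47 in PBS 2, 1.99 in PBS 4, 1.92 in LPS 2 and 1.67 in LPS 5, and 0.587 to 1.29 in the remaining 5 glands. It was the 1 T cell member under 80% in the 4 glands (75.0%). Ccr7 also marks migrating dendritic cells. Fscn1, an actin-bundling protein of such cells, was highest in LPS 3 (18.8 FPKM) with a PBS maximum of 18.3, and Ccl22, a chemokine they release, was highest in PBS 2 (4.31 FPKM) with an LPS maximum of 3.94. The part of dendritic cells in the Ccr7 values was not tested.

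Cytotoxic genes were spread more evenly. Gzma, the tryptase granzyme A, had 3.77 to 6.75 FPKM in PBS glands and 3.16 to 6.66 in 4 LPS glands, with 13.7 in LPS 3. Gzmb, granzyme B, had 1.36 to 3.96 FPKM in PBS glands, 2.24 to 3.03 in 4 LPS glands and 9.33 in LPS 3. Both granzymes were thus present in every gland, with LPS 3 alone above the rest. Mast cells and other cells can also express granzymes.

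Prf1, the pore-forming perforin, had 0.213 to 0.835 FPKM in PBS glands and 0.413 to 1.32 in LPS glands, again highest in LPS 3. Nkg7, a granule protein, had 3.76 FPKM in PBS 4, 2.83 in LPS 3, 2.63 in PBS 2, 1.43 in LPS 4 and 1.00 in LPS 2, and at most 0.808 elsewhere. Klrd1, the CD94 chain of NK receptors, had 1.93 FPKM in PBS 2, 1.45 in PBS 4 and 0.755 in LPS 3, with 0.0642 to 0.60 elsewhere. Nkg7 and Klrd1 were thus closer to the T cell order than the granzymes were.

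Stroma and homing genes ranged from the most to the least uneven of the members. Ccl21a (ENSMUSG00000094686, chromosome 4, 42772860 to 42773993, minus strand) had 66.9 FPKM in PBS 2 and 27.2 in PBS 4, against 0, 0 and 0.359 in PBS 1, 3 and 5. In LPS glands it had 4.85 FPKM in LPS 3, 0.746 in LPS 5 and 0.634 in LPS 2, and 0 in LPS 1 and 4. It was present in 982, 373 and 5 reads in PBS 2, 4 and 5 and in 73, 11 and 10 reads in 3 LPS glands. The ranges of the groups overlapped. The mouse genome holds near-identical Ccl21 copies, and how the counting divided reads among them is not known, which makes the level of Ccl21a uncertain.

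Ccl19, its neighbour on chromosome 4, had 7.67 FPKM in PBS 2, 4.11 in LPS 3, 3.29 in PBS 4 and 0.785 in LPS 2, and 0 to 0.274 in the other 6 glands. Reads could likewise be shared with its pseudogene copies. LPS 3 was thus above PBS 4 for Ccl19 and below it for Ccl21a. Cxcr5, the receptor for Cxcl13 on B cells, had 2.5 FPKM in PBS 2, 2.09 in LPS 3, 1.42 in PBS 4 and 1.09 in LPS 2, and 0.199 to 0.450 elsewhere. An exon of Cxcr5 shares 110 bases with Bcl9l on the opposite strand, which had a mean of 8.26 FPKM, and reads in the shared bases could not be assigned to either gene.

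Cxcl13 was high in every gland, with 131, 90.6, 83.1, 60.9 and 31.9 FPKM in PBS 2, 3, 4, 1 and 5 and with 69.98, 58.6, 58.1, 37.5 and 16.2 in LPS 3, 4, 2, 1 and 5. PBS 3, which had no read of Cd79a, Ccl21a or Ccl19, held the next highest Cxcl13 value after PBS 2. Glycam1 was between 29233 and 40287 FPKM in PBS glands and between 24181 and 34096 in LPS glands, and PBS 1 and 5 led. Glycam1 did not follow the order of the lymphocyte genes. Cxcl13 followed it in part. PBS 2 and LPS 3 led their groups, as for Cd79a and Cd3e, but PBS 3 was above PBS 4 and LPS 4 above LPS 2.

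**Figure D2:**
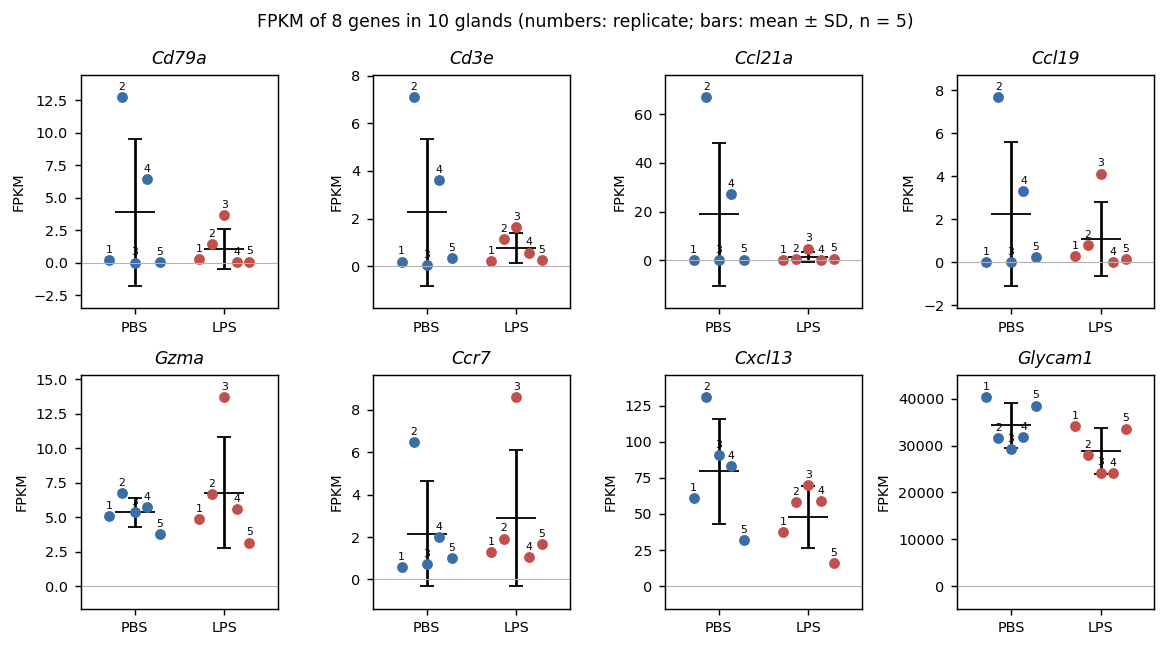
FPKM of 8 genes in each PBS (blue) and LPS (red) gland, on linear axes, with the replicate number over each point and the mean ± SD (n = 5) as a bar, whose lower end can fall below 0. PBS 2 and 4 lead for Cd79a, Cd3e and Ccl21a, LPS 3 leads for Gzma (13.7 FPKM) and Ccr7 (8.59 FPKM), and Cxcl13 and Glycam1 are present in every gland.

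The share of each transcript's summed FPKM held by PBS 2, PBS 4, LPS 3 and LPS 2 summarised these orders, and would be 40% for an even split. Because the 4 glands were picked by Cd79a, the shares are a description with no test. The median was 91.6% over the 33 members and 42.9% over the 13111 genes with mean FPKM of at least 0.5. At least 80% was reached by 24 of 33 members and by 0.755% of those genes. All 9 B cell genes passed that mark (87.5 to 98.4%, median 97.0%), as did 13 of 14 T cell genes (median 91.0%), 0 of 5 cytotoxic genes (52.7 to 75.8%) and 2 of 5 stroma and homing genes. Ccl21a had the highest share at 98.9% and Glycam1 the lowest at 36.7%.

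**Figure D3:**
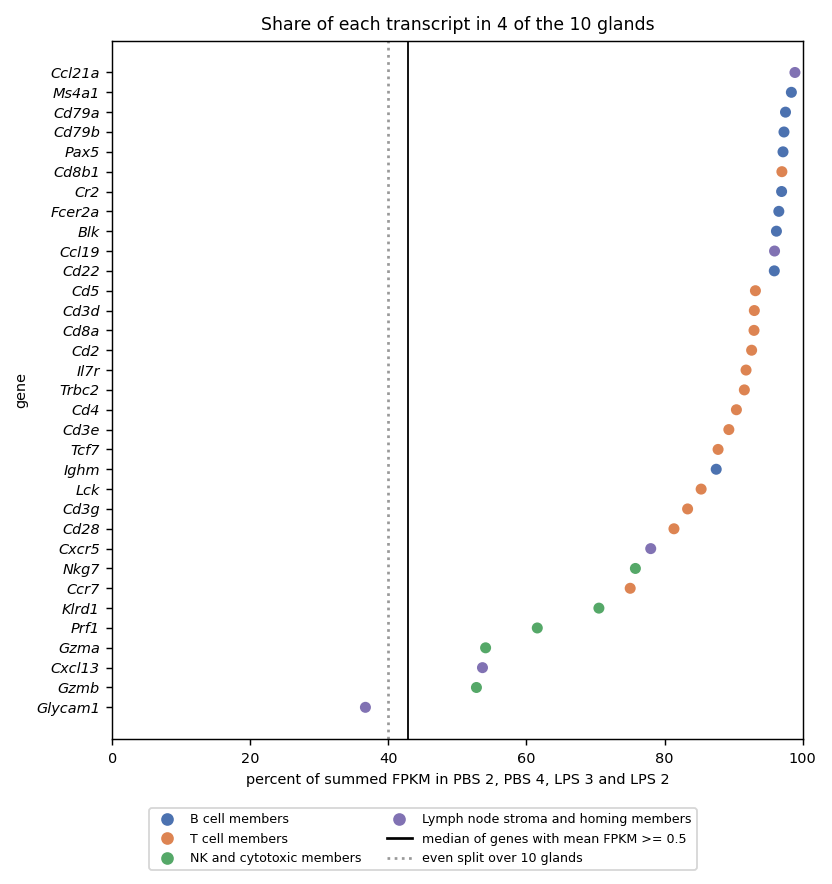
Percent of summed FPKM held by 4 of the 10 glands for each of 33 genes, coloured by role, with the median of 13111 genes (line, 42.9%) and the value of an even split (dotted, 40%). Ccl21a is at the top, and B cell genes (87.5 to 98.4%) overlap T cell genes (75.0 to 97.0%). Cytotoxic genes lie between 52.7 and 75.8%, and Glycam1 lies left of both lines.

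Other genes of the same cells, from lists chosen with earlier results known, were placed beside the members. At least 80% in the 4 glands was reached by 10 of 20 further B cell genes and 16 of 24 further T cell genes, of which 21 were highest in PBS 2. All 11 pan-leukocyte genes were highest in PBS 2 as well, with a median share of 65.1%, as were 8 of 10 dendritic cell and 7 of 8 macrophage markers. The summed FPKM of the 8 macrophage markers ran from 97.4 to 367.5 in PBS glands and from 75.2 to 178.3 in LPS glands. It was highest in PBS 2, where Lyz2 alone held 239.7 FPKM. By this sum, PBS 2 was also rich in transcripts of macrophage markers. Of 7 neutrophil markers none was highest in PBS 2, and 5 of the 6 tested were called higher in LPS glands by limma, against 2.63% of all 11414 genes tested that reached 1 FPKM in 5 or more libraries. In the fit of all 23059 genes above 0, 2 of the 7 were called, against 0.438% of genes. Milk and epithelial genes had a median share of 37.9%. The part of these cell types in the members' values was not tested.

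Genes of the node's stroma and vessels did not all follow. Of 20 further genes of lymph node stroma, high endothelium and lymphatics, 5 had at least 80% in the 4 glands. Among these, Chst4, a sulfotransferase of high endothelium, had 98.2% and Grem1, a BMP antagonist of stroma, had 96.6%, both at under 1 FPKM. Madcam1, the addressin that binds gut-homing lymphocytes, had 33.2%, with 2.77 to 10.8 FPKM in PBS and 4.28 to 12.5 in LPS glands. In this list 1 of 10 tested genes, Pdpn (podoplanin of lymphatics and stroma), was called higher in LPS glands by limma (log2 difference 0.56, adjusted p = 0.0445), against 2.63% of all 11414 genes tested. In the fit of all genes above 0 no gene of the list was called (lowest limma adjusted p 0.114). In that fit 2 of the 20 genes had an unadjusted limma p below 0.05, against 2571 of 23059 genes. Chst4, Grem1 and Pdpn were singled out after their values had been seen.

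The genes most like Cd79a and Cd3e across the 10 glands were ranked by profile overlap, the sum over glands of the smaller of the 2 genes' shares, among 11664 candidates that were not members. For Cd79a the genes of high overlap included Cd209b (89.6%), Tbc1d10c, Ptprcap, Acap1, Klk1, Lat, Spib, Rasal3 and Grap2 (86.4% for the last). For Cd3e the first was Acap1 at 92.0%, followed by Tbc1d10c, Rasal3, Il27ra, Grap2, Timd4, Itgb7, Ptprcap, Prkcq and Siglech (87.6%). The median candidate overlapped Cd79a by 39.7% and Cd3e by 49.2%. Tbc1d10c, Ptprcap, Acap1, Rasal3 and Grap2 were on both lists. Cd79a and Cd3e overlapped each other by 89.8%, so these 2 markers shared nearly the same distribution over the glands. Other B and T cell members overlapped Cd79a by 56.3% (Ccr7) to 94.0% (Cd5). They overlapped Cd3e by 62.6% (Ccr7) to 90.0% (Cd5).

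Within the 4 glands, the members were not in constant proportion. The ratio of Cd79a to Cd3e FPKM was 1.79 in PBS 2 (95% counting interval 1.48 to 2.17), 1.77 in PBS 4 (1.34 to 2.34), 2.21 in LPS 3 (1.51 to 3.28) and 1.22 in LPS 2 (0.731 to 2.04), so the 4 intervals overlapped. The ratio of Ccl21a to Cd3e was 9.42 (8.01 to 11.1) in PBS 2 and 7.51 (5.90 to 9.66) in PBS 4, but 2.94 (1.98 to 4.42) in LPS 3 and 0.550 (0.240 to 1.16) in LPS 2. Relative to Cd3e, Ccl21a was thus lower in both LPS glands than in both PBS glands, beyond counting error. Ccl19 to Cd3e did not follow, with 1.08 in PBS 2, 0.906 in PBS 4, 2.49 in LPS 3 and 0.681 in LPS 2.

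The ratio of Fcer2a to Cd79a was 0.405 (0.337 to 0.486) in PBS 2 and 0.310 (0.229 to 0.414) in PBS 4, against 0.134 (0.0773 to 0.222) in LPS 3 and 0.158 (0.0671 to 0.334) in LPS 2. Cd22 to Cd79a ran the other way, with 0.368 (0.313 to 0.432) and 0.312 (0.244 to 0.398) in the PBS glands and 1.34 (1.06 to 1.71) and 0.585 (0.381 to 0.907) in the LPS glands. Ccr7 to Cd3e was 0.912 (0.743 to 1.12) and 0.549 (0.388 to 0.773) in PBS 2 and 4, and 5.21 (3.75 to 7.41) and 1.67 (1.07 to 2.66) in LPS 3 and 2. Gzmb to Cd3e was 0.294 and 0.939 in PBS 2 and 4, and 5.66 and 2.63 in LPS 3 and 2. For Fcer2a to Cd79a, Cd22 to Cd79a and Ccr7 to Cd3e, the LPS 2 interval overlapped a PBS interval. Higher ratios did not always mean higher numerators. In LPS 2, Gzmb, Ccr7 and Cd22 (3.03, 1.92 and 0.818 FPKM) were below PBS 4 (3.41, 1.99 and 2.0 FPKM). Cd3e was 1.15 against 3.63 FPKM and Cd79a 1.40 against 6.41 in these glands. LPS 2 was above PBS 2 for Gzmb but not for Ccr7 or Cd22. In LPS 3 each of these numerators was above both PBS glands. These pairs were chosen after the values had been seen, from 2 glands a group, and the differences between groups were not tested.

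**Figure D4:**
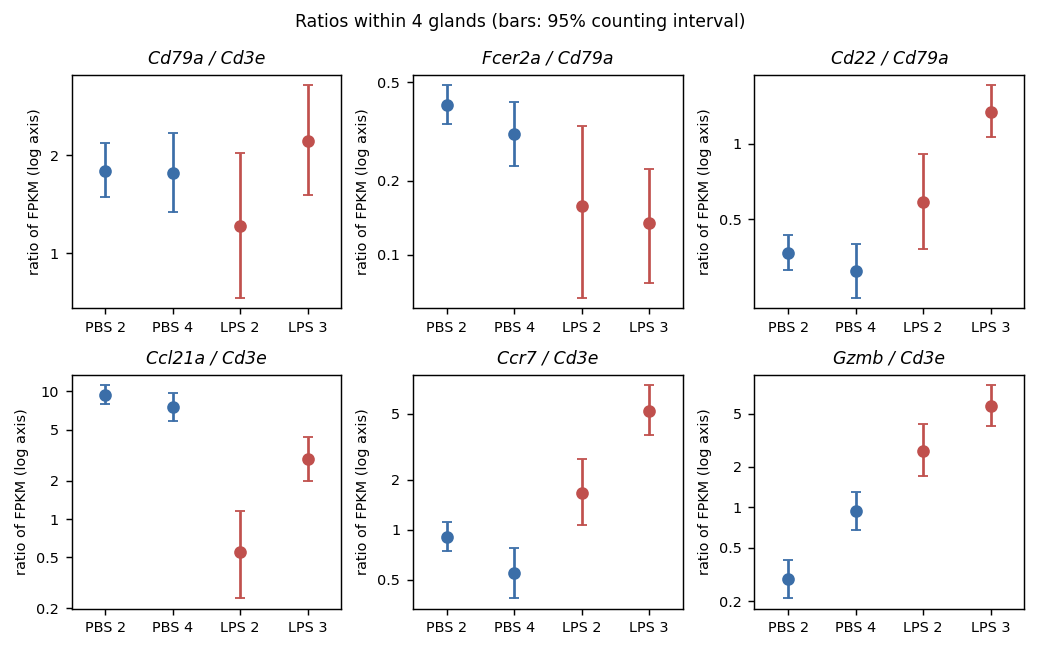
Ratio of the FPKM of 6 gene pairs in PBS 2, PBS 4 (blue), LPS 2 and LPS 3 (red), on log axes, with 95% counting intervals as bars. Cd79a to Cd3e lies between 1.22 and 2.21 in the 4 glands. The points of Ccl21a to Cd3e and Fcer2a to Cd79a are lower in both LPS glands. Those of Cd22 to Cd79a, Ccr7 to Cd3e and Gzmb to Cd3e are higher in both. The LPS 2 interval overlaps a PBS interval for Fcer2a to Cd79a, Cd22 to Cd79a and Ccr7 to Cd3e.

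The design set LPS glands against PBS glands, 12 h after endotoxin, and in that contrast, fitted without pairing the glands, no member was called. An alternative fit blocked glands of equal number as if paired, which the labels do not state. It called Cxcl13 lower, as given in the closing section. Among the 11414 genes that reached 1 FPKM in 5 or more libraries, limma called 300 genes higher in LPS glands (2.63%) and 69 lower (0.605%) at an adjusted p below 0.05. Only 8 members passed that filter and none was called in either direction; none of them had an unadjusted p below 0.05. Among the same 11414 genes, every LPS gland was above every PBS gland for 3.53% and every PBS gland above every LPS gland for 1.22%. The groups overlapped for every one of the 33 members.

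Of the 8 tested, Ighm had 50.6 ± 55.0 FPKM in PBS and 11.7 ± 20.2 in LPS glands (mean ± SD, n = 5 each) and a log2 difference of -2.14 on the log2(FPKM + 1) scale (limma adjusted p = 0.383). Cxcl13 had 79.5 ± 36.6 and 48.1 ± 21.3 FPKM (log2 difference -0.73, limma adjusted p = 0.407). Under the replicate block the limma adjusted p of Cxcl13 was 0.00515. That block also raised the calls over all genes, as given in the closing section. Trbc2 had a log2 difference of -1.03, Glycam1 of -0.26, Nkg7 of -0.10, Gzmb of 0.33, Ccr7 of 0.30 and Gzma of 0.18, with limma adjusted p from 0.571 to 0.946. For the lymphocyte genes among them the SD was near or above the mean in at least 1 group, except for Gzma and Gzmb.

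With every gene above 0 in the fit, which takes in the other 25 members, limma called 101 of 23059 genes higher (0.438%) and 25 lower (0.108%). No member was called, the lowest adjusted p was 0.570 (Cd3g), and none had an unadjusted p below 0.05. Over these 23059 genes, the share whose groups did not overlap was 2.08% with LPS higher and 0.863% with PBS higher. With edgeR on the recovered reads 9 members had an unadjusted p below 0.05 and with DESeq2 3 members. The share of all genes below that cut is not given here for edgeR or DESeq2, so these counts lack a background. In the limma fit above, 2571 of 23059 genes were below it. No member was called with either method (lowest adjusted p 0.145 with edgeR and 0.231 with DESeq2).

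The log2 differences were negative for 29 of 33 members, with a median of -0.42 over the members and 0.01 over all 23059 genes. The 4 positive ones were Ccr7, Gzma, Gzmb and Prf1. Ccl21a had the widest interval after Ighm, with a log2 difference of -1.46 (95% confidence interval -4.18 to 1.26), Cd79a had -0.60 (-2.37 to 1.17) and Cd3e -0.44 (-1.68 to 0.80). The highest upper limit of any member was 1.43, for Ccr7. A missed threshold does not show that the groups were alike.

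These medians rested on single glands. Without PBS 2 the median of the members was -0.07 and 12 were positive, and without LPS 3 it was -0.60 and 2 were positive. Without the 4 glands of highest Cd79a it was -0.03 with 15 positive, and Cd79a, Cd3e and Ccl21a turned to 0.063, 0.17 and 0.12. Those glands were left out by the value of a member. The other 6 had 0 to 7 reads of Cd79a, 1 to 13 of Cd3e and 0 to 11 of Ccl21a. On the log2(FPKM + 1) scale such values can differ little, so for these genes the fall towards 0 followed from the choice. Their new signs rest on few reads. Trbc2 moved from -1.03 to -0.44 without PBS 2 and to -0.30 without the 4 glands, and Gzmb from 0.33 to 0.033 without LPS 3 and to 0.012 without the 4. Ighm (-1.96) and Cxcl13 (-0.75) kept their sign without the 4 glands. In that fit of 3 against 3 glands limma called no member either, with a lowest adjusted p of 0.373.

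**Figure D5:**
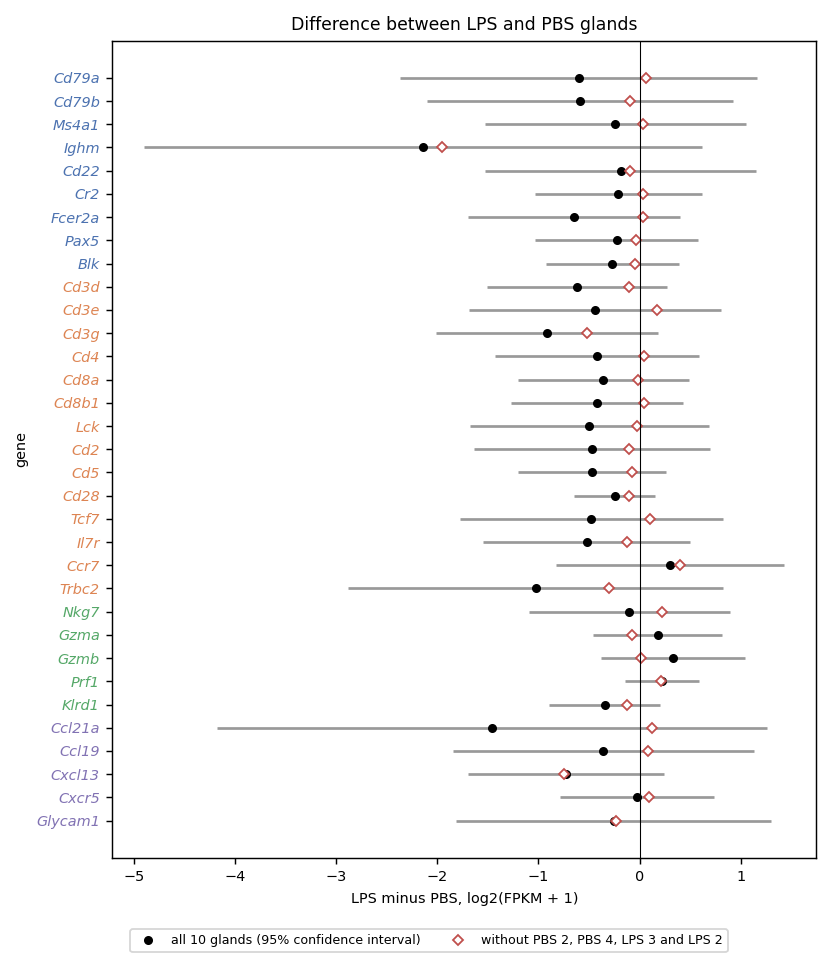
LPS minus PBS difference on the log2(FPKM + 1) scale for 33 genes with all 10 glands (black, with the 95% confidence interval as a bar) and without PBS 2, PBS 4, LPS 3 and LPS 2 (open diamonds). Each interval crosses 0, 29 of the black points lie below 0, and the diamonds of Ighm (-1.96) and Cxcl13 (-0.75) lie farthest from 0.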

How the data were processed

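The submitters' processing notes name STAR 2.5, HTSeq 0.6.1, DESeq2 with version 2 and build mm10; the role of each, the annotation release and the strand setting are not given in the sources used here. Per the file headers, the authors deposited FPKM of 35275 genes for 10 libraries, and for 908 genes that they list as differing also raw counts, a normalized signal, log2 fold changes, p-values and gene lengths. The members were not in that list, so the deposited FPKM were used. Lengths that turn FPKM into whole reads within 0.002 reads were searched, taking the shortest; they gave reads for 23059 of 23059 genes above 0 and equalled the deposited length for 906 of 908. Symbols came from reference tables for 34490 genes and from the authors' list for 3. Of the 34 members, 33 had values.

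Genes that reached 1 FPKM in 5 or more libraries were tested with limma 3.58.1 (R 4.3.3, intensity trend, two-sided) on log2(FPKM + 1), with Benjamini-Hochberg adjustment over all tested genes and calls below 0.05. This scale understates the change of low genes. The alternatives were pseudocounts of 0.1 and 5, other filters, scalings, a replicate block, robust variance, each library left out, the 4 libraries of highest Cd79a left out, and edgeR 4.0.16 and DESeq2 1.42.0 on recovered reads, where 100% of genes above 0 came out whole. The procedures were tested on simulated data. Counting intervals are exact at the 95% level. By the naming rule all members were covered, and for each further list counts, medians and up to 3 genes of highest mean FPKM; the lists held 207 entries in all. A gene that the rule on likeness would name is not reported here. The members and lists were chosen with earlier results of these data known.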

Additional observations from a re-analysis of the deposited data

Results flagged for a closer look

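In each group of 5 glands, the highest or lowest value was compared with its nearest neighbour: a gland was set apart where the gap exceeded 0.710 of the group's range (Dixon's limit for 5). For normally distributed values chance does this in about 1 in 20 groups. Here 21 of 66 groups did it, always with the highest gland. Members share their glands, so these are not independent. The share over all genes is not given here, so the count cannot be called particular to the members. PBS 2 was highest for 24.8% and LPS 3 for 16.7% of the 13111 genes with mean FPKM of at least 0.5. LPS 3 was far above the other 4 LPS glands for 17 genes. Among B cell genes it had 3.31 FPKM of Cd79b, 47.5 of Ighm, 4.90 of Cd22 and 0.911 of Blk. Among T cell genes it had 0.743 FPKM of Cd3d, 1.58 of Cd4, 1.31 of Cd8a, 0.856 of Cd8b1, 2.56 of Cd2, 0.426 of Cd28, 3.09 of Tcf7, 1.46 of Il7r, 8.59 of Ccr7 and 6.21 of Trbc2. It also had 9.33 FPKM of Gzmb, 4.85 of Ccl21a and 4.11 of Ccl19. PBS 2 was far above the other 4 PBS glands for 2.75 FPKM of Pax5, 1.16 of Cd28, 5.03 of Il7r and 6.47 of Ccr7.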

How the results depend on the processing

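No member was called in any alternative except Cxcl13 under the replicate block. Over all tested genes, limma called 300 higher and 69 lower; the counts were 254 and 115 with median-of-ratios scaling, 233 and 145 with quantile normalization, 128 and 348 when rescaled outside milk proteins, 101 and 25 with no filter, and 8 and 0 without the 4 libraries of highest Cd79a. With edgeR on recovered reads they were 305 and 132 and with DESeq2 546 and 300. Leaving out 1 library at a time gave 121 to 429 higher and 27 to 88 lower. The labels do not tie equal numbers to a mouse, so the replicate block stayed an alternative. Correlations of same-numbered glands were 0.099 to 0.494, and 3 of 5 LPS glands correlated best with their own number. LPS 3 correlated best with PBS 2 (0.42) and LPS 4 with PBS 3 (0.14). These values do not settle whether some glands were paired. With a replicate block, 962 genes were higher and 267 lower, and 1 member, Cxcl13, was called lower (adjusted p = 0.00515). Without the 4 libraries, 13 members reversed: Cd79a 0.063, Ms4a1 0.035, Cr2 0.030, Fcer2a 0.032, Cd3e 0.17, Cd4 0.040, Cd8b1 0.040, Tcf7 0.11, Nkg7 0.22, Gzma -0.070, Ccl21a 0.12, Ccl19 0.080 and Cxcr5 0.090 on the log2 scale. Gzma was -0.0055 when rescaled outside milk proteins and Cxcr5 0.063 with a pseudocount of 0.1. With 1 library left out at a time, 10 members changed sign: Ms4a1 ran from -0.58 to 0.21, Cd22 from -0.65 to 0.21, Cr2 from -0.41 to 0.10, Pax5 from -0.40 to 0.11, Cd3e from -0.73 to 0.015, Ccr7 from -0.090 to 0.68, Nkg7 from -0.34 to 0.19, Gzma from -0.082 to 0.37, Ccl19 from -0.76 to 0.15 and Cxcr5 from -0.23 to 0.22. Leaving out PBS 2 turned 8 of them and LPS 3 turned Ccr7 and Gzma; Nkg7 and Cxcr5 also turned without PBS 4, LPS 1 or LPS 5, and Cxcr5 without LPS 4. The cause was not tested, beyond fewer genes or libraries entering some fits. Depth limits the low glands, where most B and T cell members had under 30 reads.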
